A study of Homo sapiens with 6 samples.

Results

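Histone genes supply the protein core around which DNA is wound. In MDA-MB-231 cells given the peptide PDBAG1, 55 of the 17631 genes in the expression table were histone genes, and of the 39 with enough signal to test, 12 were lower than with vehicle and 0 were higher at an adjusted p under 0.05. Over all genes tested, 15.9% were lower and 21.7% higher by the same rule. The genes were taken by symbol, as every row whose name has the form of a core or linker histone gene (H1-, H2AC, H2AX, H2AZ, H2AJ, H2BC, H3C, H3- and H4C, with their older HIST, H2AF, H1F and H3F names). They comprised 45 replication-dependent genes, which carried an older HIST symbol, and 10 variant genes, which did not. Gene names such as MACROH2A1 and CENPA do not have this form and stood outside the set.

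The RNA came from MDA-MB-231, an established line of triple-negative breast cancer cells kept in DMEM with fetal bovine serum, and 3 libraries were made from vehicle cells and 3 from cells given 30 µM PDBAG1, all for 24 h. PDBAG1 is a peptide from the metabolic enzyme GPD1 joined to a cell-penetrating sequence. The labels call the source both this line and breast cancer tissue. They do not say whether the 3 libraries of a group came from separate cultures, so p-values measure only the spread between these samples. In RNA from a whole culture, fewer cells of a type and less RNA per cell cannot be told apart.

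Replication-dependent histone genes lie in clusters and are transcribed mainly in S phase, when new DNA has to be packed. Their messages usually end in a short stem-loop bound by the protein SLBP, not in a poly(A) tail. Variant histones are encoded by single genes outside the clusters, usually with polyadenylated messages, and replace the standard histones at particular places or outside replication. Libraries enriched for polyadenylated RNA therefore hold few messages of the first kind, and the methods name the libraries only as mRNA libraries.

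The stem-loop was looked for as 16 bases holding the fixed letters GG, CTTTT, AG and CC in that order, with free positions between them, within 150 bases after the stop codon of GENCODE 44 coding transcripts, on the coding strand, and it was present in all 44 replication-dependent genes that matched that annotation. Of the 10 variant genes, H2AX carried it and the other 9 did not. Among 12310 other tested genes, 1 (0.00812%) carried it. The sites of the replication-dependent genes called lower, and of H2AX, are shown. Every matched replication-dependent gene carried this feature of the 3′ end, and among the variant genes H2AX alone did. The stem-loop is in capitals, with up to 5 flanking bases on each side in lower case, in the 3′ UTR and in GRCh38 coordinates of the capitals.
H2BC12 (chr6:27146366-27146381, minus strand): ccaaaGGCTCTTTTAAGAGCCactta
H2BC11 (chr6:27132321-27132336, minus strand): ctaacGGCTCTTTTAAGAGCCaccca
H2BC4 (chr6:26123472-26123487, minus strand): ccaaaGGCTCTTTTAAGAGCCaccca
H2BC5 (chr6:26158587-26158602, plus strand): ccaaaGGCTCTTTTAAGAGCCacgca
H3C3 (chr6:26045849-26045864, plus strand): gaaaaGGCTCTTTTCAGAGCCactca
H3C10 (chr6:27810516-27810531, plus strand): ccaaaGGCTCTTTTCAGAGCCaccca
H1-4 (chr6:26157095-26157110, plus strand): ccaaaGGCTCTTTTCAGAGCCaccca
H2AX (chr11:119094898-119094913, minus strand): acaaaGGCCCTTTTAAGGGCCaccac
The most frequent form, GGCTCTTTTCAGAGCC, was found in 26 genes and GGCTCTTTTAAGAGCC in 7, among them the 4 H2B genes shown. In the canonical transcript of H2AX the message runs 1024 bases past the stem-loop and holds a poly(A) signal near its end, while in those of the other genes shown it stops 5 bases after it. Longer coding transcripts with a poly(A) signal are also annotated for 4 of the replication-dependent genes shown. That of H3C10 runs 769 bases past its stem-loop, and those of H2BC11, H2BC5 and H2BC4 run 569, 384 and 272 bases past the stop codon without a stem-loop in the window searched.

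RefSeq promoters, 250 bases before to 50 after the start in GRCh38.p14, were given for 49 of the 55 genes. The promoters of the most abundant variant gene, of the variant gene with the largest change and of the most abundant replication-dependent gene are printed for their motif content. Capitals mark matches on either strand to the CCAAT box (CCAAT), TATA box (TATAAA), octamer (ATTTGCAT) and E2F site (TTTNGCGC), and overlapping matches run together.
H2AZ1 (chr4:99950226-99950525, minus strand): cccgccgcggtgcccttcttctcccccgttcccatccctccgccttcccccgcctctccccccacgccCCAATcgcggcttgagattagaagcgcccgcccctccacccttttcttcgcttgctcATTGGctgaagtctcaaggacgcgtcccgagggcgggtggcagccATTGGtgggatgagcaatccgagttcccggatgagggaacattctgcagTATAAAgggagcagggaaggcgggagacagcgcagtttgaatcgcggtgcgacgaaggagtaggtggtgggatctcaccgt
H2AX (chr11:119095416-119095715, minus strand): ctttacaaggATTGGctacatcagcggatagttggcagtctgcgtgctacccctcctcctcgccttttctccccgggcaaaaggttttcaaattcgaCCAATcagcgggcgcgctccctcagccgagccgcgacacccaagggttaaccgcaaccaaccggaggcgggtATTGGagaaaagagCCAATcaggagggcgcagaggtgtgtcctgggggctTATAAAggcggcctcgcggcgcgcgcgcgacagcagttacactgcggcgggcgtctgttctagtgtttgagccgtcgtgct
H2BC12 (chr6:27146809-27147108, minus strand): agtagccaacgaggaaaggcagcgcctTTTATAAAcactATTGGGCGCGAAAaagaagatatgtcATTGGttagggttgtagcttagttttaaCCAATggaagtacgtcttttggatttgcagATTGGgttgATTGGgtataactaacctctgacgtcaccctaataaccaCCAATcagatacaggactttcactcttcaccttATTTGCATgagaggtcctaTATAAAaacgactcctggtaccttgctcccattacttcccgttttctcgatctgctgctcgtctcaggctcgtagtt
CCAAT was found in 87.8% of the 41 replication-dependent promoters, in 87.5% of the 8 variant promoters and in 36.5% of 10261 other tested genes. TATAAA was found in 75.6%, 50% and 5.48%, in the same order. The octamer was found in 43.9%, 12.5% and 1.26%, and TTTNGCGC in 24.4%, 0% and 3.06%. H2AZ1 and H2AX each held CCAAT and TATAAA but neither of the other motifs, and H2BC12 held all 4.

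Values were TPM, the number of a gene's transcripts among 1000000 after correction for gene length, and were tested as log2(TPM + 1) with limma and Benjamini-Hochberg adjustment over 12582 genes with at least 1 TPM in 3 or more libraries. Each library had between 12392 and 12611 genes at 1 TPM. Depth is unknown, since TPM keeps none. Of 5 markers of this line, VIM (mean 4270 TPM with vehicle and 5877 with PDBAG1), CD44 and ANXA1 were called higher with PDBAG1, AXL was called lower and EGFR was not called, and all 5 were above 66 TPM in every library. Of 5 markers low or absent in it, PGR was at most 0.06 TPM, CDH1 at most 0.84, ESR1 at most 3.38, EPCAM at most 5.78 and ERBB2 at most 25.4, with 0 called by limma, 0 at an unadjusted p under 0.05, and PGR and CDH1 too low to test. Of the markers of other cells, PTPRC stood between 0.86 and 1.41, VWF at most 0.09, COL3A1 at most 0.07, ADIPOQ at most 0.69 and COL1A1 between 3.89 and 4.92 TPM. PECAM1 stood between 3.78 and 4.08 with vehicle and between 7.87 and 9.15 with PDBAG1, and CD68 between 250.7 and 263.8 and between 305.6 and 329.0, and both were called higher. The part of these markers in the histone results was not tested.

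The histone genes called lower were 7 of 31 tested replication-dependent genes and 5 of 8 tested variant genes. Over all genes tested, 15.9% were called lower and 21.7% higher, so the share was 22.6% for the tested replication-dependent genes and 62.5% for the tested variant genes. With another scaling between libraries, the split over all genes moved from 57.8% of calls higher to 47.2% (median-of-ratios) or 46.7% (quantile), and 21.8% of genes were then lower. With these scalings, in the same order, 8 and 9 replication-dependent genes and 6 and 5 variant genes were called lower. At an unadjusted p under 0.05, 15 histone genes were lower and 0 higher in limma. The estimate lay below 0 in 35 of the 39 tested genes. In these counts H4C14 and H4C15, which carry the same value in every library, enter separately. The median log2 fold change was -0.19 for the replication-dependent genes and -0.13 for the variant genes, beside 0.03 for all genes tested. Every PDBAG1 library lay below every vehicle library in 6 of the 8 tested variant genes, against 20.2% of all genes tested. This also held in 6 of the 31 tested replication-dependent genes, which is near that share. A decrease of at least 1.5-fold on the log2(TPM + 1) scale was called in 3 genes, all replication-dependent (H3C3, H2BC11 and H2BC4), against 0.477% of all genes, and in 0 variant genes. H3C10 fell short of it on that scale, although its mean TPM was 1.76 times higher with vehicle. The vehicle means of H3C3, H2BC11 and H2BC4 were only 4.69, 3.24 and 3.67 TPM. Under alternative processing their estimates came as near 0 as -0.49, -0.46 and -0.41, short of 1.5-fold.

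**Figure D1:**
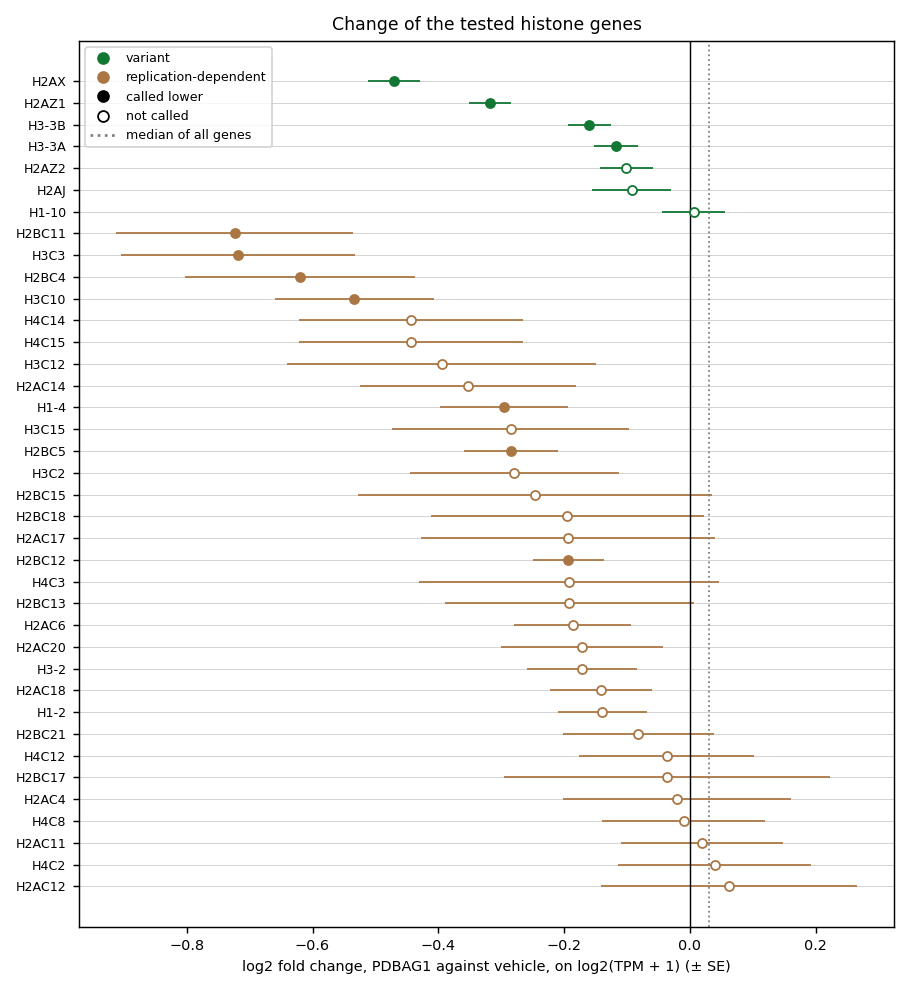
Log2 fold change of 38 of the 39 tested histone genes, PDBAG1 against vehicle, on the log2(TPM + 1) scale with its standard error (3 libraries a group). Filled points were called lower, and only H1-10, H2AC11, H2AC12 and H4C2 lay above 0.

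In these mRNA libraries the classes differed far more in level than in change. The part of enrichment for polyadenylated RNA in the difference of level was not tested. Summed over all members, variant genes stood at 3010, 3058 and 2997 TPM with vehicle and at 2634, 2608 and 2622 TPM with PDBAG1, a change of the mean by -13.2%. Replication-dependent genes summed to 286.9, 294.6 and 288.7 TPM with vehicle and 250.3, 250.6 and 239.6 TPM with PDBAG1, a change by -14.9%. In both classes the 3 PDBAG1 sums lay below the 3 vehicle sums. The replication-dependent share of all histone TPM was 8.76% ± 0.0487 (SD, n = 3) with vehicle and 8.61% ± 0.206 (SD, n = 3) with PDBAG1, with overlapping ranges. H2BC12 alone made up 36.4% ± 2.00 (SD, n = 3) of the replication-dependent sum with vehicle. Without it that sum changed by -16.3%. These sums are descriptions with no test.

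**Figure D2:**
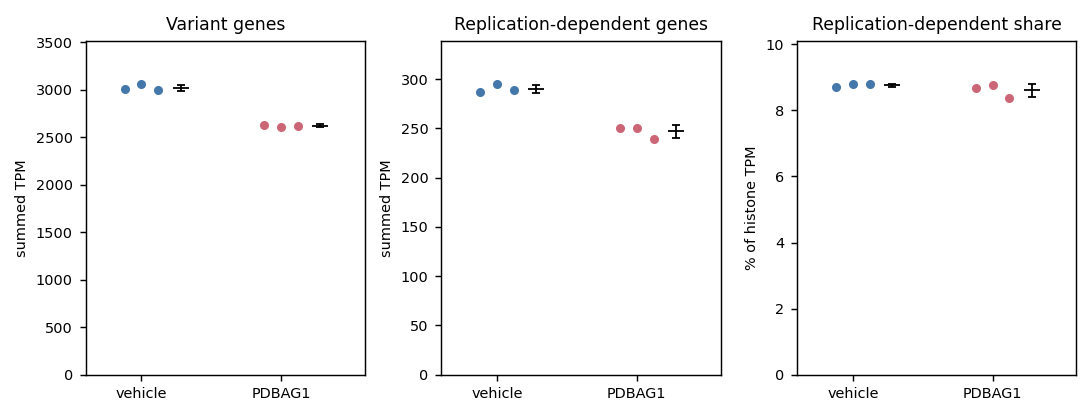
Summed TPM of the variant genes and of the replication-dependent genes, and the replication-dependent share of all histone TPM in percent, as points for the 3 libraries of each group with mean and SD. Both sums are lower in every PDBAG1 library, while the share spans 8.70 to 8.79% with vehicle and 8.37 to 8.77% with PDBAG1.

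Among the variants of H2A, H2AX changed most. H2AX, whose phosphorylated form marks DNA breaks, stood at 231.7, 249.5 and 242.0 TPM with vehicle and at 179.0, 170.3 and 171.8 TPM with PDBAG1. The groups did not overlap, and the log2 fold change was -0.47 (SE 0.0415, adjusted p = 1.45e-06). The gene lies at chr11:119093874-119095465 on the minus strand. It was the variant gene with the replication-type stem-loop printed above.

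H2AZ1, 1 of 2 genes for the variant H2A.Z of promoters and regulatory DNA, was the most abundant histone gene, at 941.5, 935.4 and 947.4 TPM with vehicle and 777.3, 754.8 and 733.4 TPM with PDBAG1. Every PDBAG1 library was lower, with a log2 fold change of -0.32 (SE 0.0337, adjusted p = 8.33e-06). Its paralogue H2AZ2 stood at 183.9, 181.7 and 182.9 TPM with vehicle and 167.6, 164.7 and 179.2 TPM with PDBAG1. The groups did not overlap there either, but the estimate of -0.10 (SE 0.0420) missed the threshold (adjusted p = 0.0733), and it passed without PDBAG1 replicate 3 (adjusted p = 0.0200). It also passed with median-of-ratios (adjusted p = 0.0152) and quantile scaling (adjusted p = 0.0488). H2AZ1 supplied 83.7% ± 0.0799 (SD, n = 3) of the H2A.Z TPM with vehicle and 81.6% ± 1.05 (SD, n = 3) with PDBAG1, a pair chosen after its values were seen. The groups did not overlap, and a two-sided exact permutation test gave p = 0.1, the smallest that 3 against 3 libraries allow (adjusted p = 0.15 over 3 pairs of paralogues). H2AJ, a minor H2A variant, stood at 25.5, 24.9 and 23.9 against 24.6, 23.0 and 22.0 TPM, with overlapping groups and an estimate of -0.09 (SE 0.0632, adjusted p = 0.273).

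The variant H3.3, placed on chromatin outside replication, is encoded by H3-3A and H3-3B. H3-3A stood at 729.3, 735.2 and 712.8 TPM with vehicle and 647.9, 671.5 and 688.4 TPM with PDBAG1. H3-3B stood at 401.4, 404.7 and 398.1 TPM with vehicle and 360.4, 356.2 and 361.1 TPM with PDBAG1. Neither gene had overlapping groups. The log2 fold change was -0.12 for H3-3A (SE 0.0350, adjusted p = 0.0174) and -0.16 for H3-3B (SE 0.0337, adjusted p = 0.00218). The call of H3-3A was lost without vehicle replicate 2 (adjusted p = 0.0685), without PDBAG1 replicate 1 (adjusted p = 0.0599) and with quantile normalisation (adjusted p = 0.137). H3-3A made up 64.4% ± 0.191 (SD, n = 3) of the H3.3 TPM with vehicle and 65.1% ± 0.710 (SD, n = 3) with PDBAG1, and these ranges overlapped (two-sided exact permutation p = 0.3, adjusted p = 0.3). H3-5, a further H3.3-like gene, was at most 0.90 TPM and was not tested.

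H1-10 is a linker histone variant made outside replication. H1-10 stood at 155.8, 172.1 and 158.4 TPM with vehicle and 172.8, 155.5 and 160.0 TPM with PDBAG1. Its groups overlapped, and its estimate of 0.01 (SE 0.0506, adjusted p = 0.939) took a negative sign with median-of-ratios scaling (-0.04) and without vehicle replicate 1 (-0.02), vehicle replicate 3 (-0.01) or PDBAG1 replicate 1 (-0.04). H1-8, the linker histone of egg cells, was at most 0.07 TPM and was not tested.

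**Figure D3:**
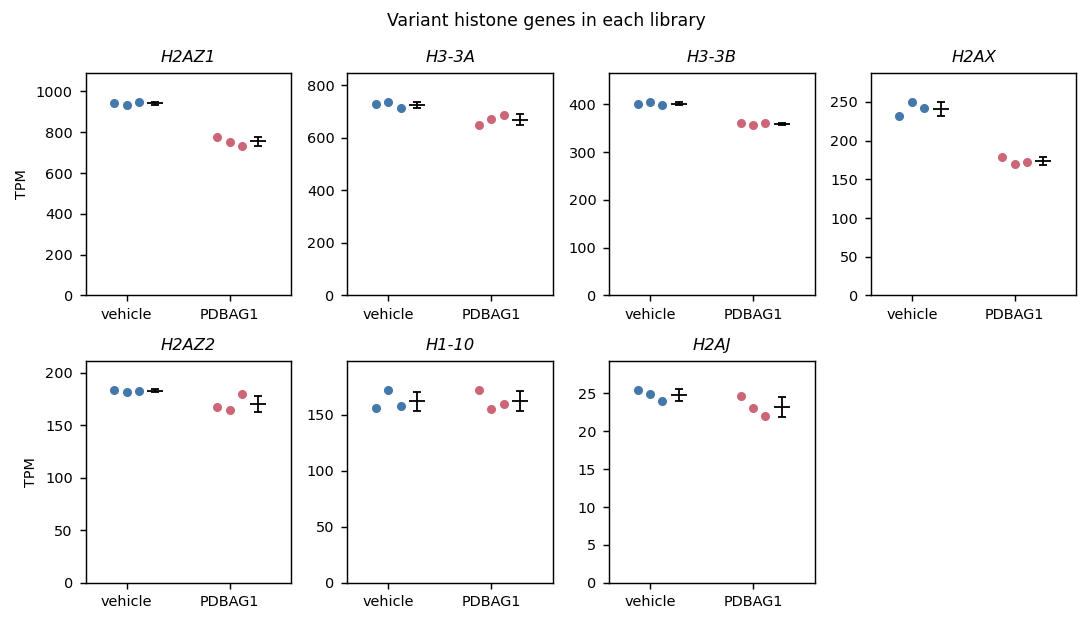
TPM of 7 of the 8 tested variant histone genes in each of the 3 vehicle and 3 PDBAG1 libraries, as points with mean and SD, each axis starting at 0. H2AX and H2AZ1 show the widest gaps between groups, and H1-10 shows none.

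In these libraries the replication-dependent genes were low. Their median vehicle level was 2.30 TPM against 211.9 TPM for the variant genes, and 14 of the 45 did not pass the filter (H2AC1, H2AC13, H2AC15, H2AC21, H2BC1, H2BC3, H2BC6, H2BC14, H3-4, H3C1, H3C8, H3C13, H4C1 and H4C9). None of the tested members passed through the libraries of 1 group alone. The mean reached 10 TPM in 6 genes.

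**Figure D4:**
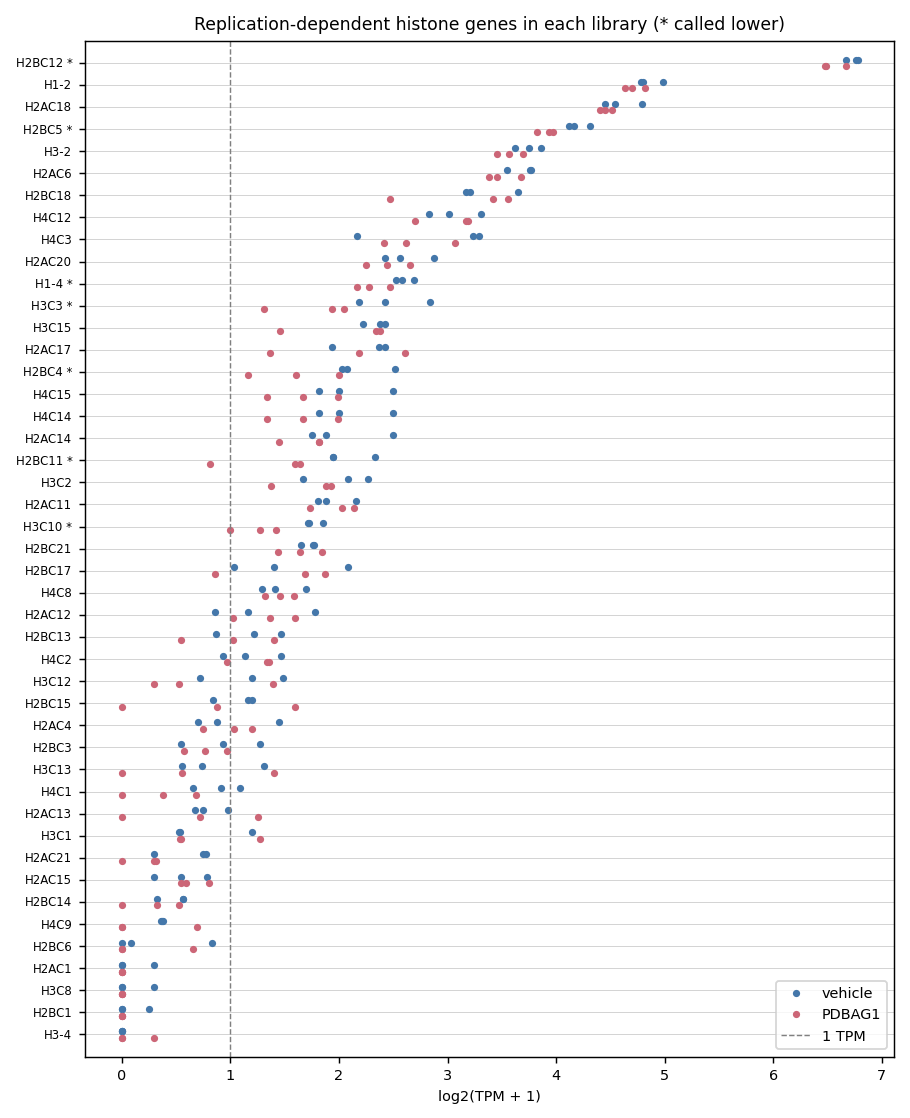
Level of the 45 replication-dependent histone genes in each library, as log2(TPM + 1), ordered by vehicle mean, with vehicle and PDBAG1 libraries as separate points and asterisks on the 7 genes called lower. H2BC12 stands far above the rest, and the 14 genes that did not pass the filter lie around or below 1 TPM, the dashed line.

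Linker and core genes of the abundant group are described first. H2BC12, an H2B gene at chr6:27146361-27146855, stood at 108.6, 100.6 and 107.5 TPM with vehicle and 100.6, 88.6 and 87.8 TPM with PDBAG1. The groups overlapped, since PDBAG1 replicate 1 lay just above the lowest vehicle library, and the log2 fold change was -0.19 (SE 0.0563, adjusted p = 0.0153). The call was lost without vehicle replicate 3 (adjusted p = 0.0611) or PDBAG1 replicate 2 (adjusted p = 0.0689). In the coding sequence of H2BC12, 74.1% of 50-base words occur in another gene, and 61.4% in H2BC12L, so its value is uncertain if the counting split such reads.

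H2BC5, another H2B gene, stood at 18.8, 16.4 and 16.9 TPM with vehicle and 14.3, 13.2 and 14.7 TPM with PDBAG1. The groups did not overlap, and the log2 fold change was -0.28 (SE 0.0746, adjusted p = 0.00858). Without PDBAG1 replicate 2 it fell short (adjusted p = 0.0507).

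H1-2, a linker histone of dividing cells, stood at 30.6, 26.6 and 26.9 TPM with vehicle and 27.2, 24.98 and 23.8 TPM with PDBAG1 (log2 fold change -0.14, SE 0.0708, adjusted p = 0.141). H2AC18 stood at 20.9, 26.7 and 22.4 against 20.8, 21.8 and 20.2 TPM (-0.14, SE 0.0812, adjusted p = 0.191), and H2AC6 at 12.5, 12.6 and 10.7 against 9.42, 11.8 and 9.96 TPM (-0.19, SE 0.0929, adjusted p = 0.133). Both encode core H2A. In all 3 genes the groups overlapped and no change was called, although H2AC6 passed with quantile normalisation (adjusted p = 0.0334). H3-2, an H3 gene on chromosome 1, stood at 13.5, 11.3 and 12.4 TPM with vehicle and 9.94, 10.8 and 11.9 TPM with PDBAG1. Its groups overlapped (-0.17, SE 0.0870, adjusted p = 0.140), and it passed with median-of-ratios (adjusted p = 0.0306) and quantile scaling (adjusted p = 0.0144). In the coding sequence of H3-2, 50.6% of 50-base words occur in another gene. A non-coding RNA gene on the same strand also overlaps its exons, so its value is uncertain too.

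Of the 31 tested replication-dependent genes, 6 had a mean of at least 10 TPM. Among the rest, 5 were called lower, beside 15.9% of all genes tested. Those 5 are named because they were called, and they included the largest estimates in the set. H2BC11 stood at 4.02, 2.84 and 2.85 TPM with vehicle and 2.01, 0.76 and 2.11 TPM with PDBAG1 (log2 fold change -0.72, SE 0.189, adjusted p = 0.00830). H2BC4, a further H2B gene, stood at 4.71, 3.22 and 3.08 against 2.99, 1.24 and 2.03 TPM (-0.62, SE 0.182, adjusted p = 0.0160). The groups of both were separate. The call of H2BC4 was lost without vehicle replicate 1 (adjusted p = 0.0661), without PDBAG1 replicate 2 (adjusted p = 0.0745) and with no filter on low values (adjusted p = 0.0757).

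The H3 genes H3C3 and H3C10 encode replication-type H3. H3C3 stood at 3.55, 6.15 and 4.37 TPM with vehicle and 2.83, 3.13 and 1.48 TPM with PDBAG1 (log2 fold change -0.72, SE 0.186, adjusted p = 0.00799). H3C10 stood at 2.60, 2.28 and 2.30 against 1.41, 1.68 and 0.99 TPM (-0.53, SE 0.126, adjusted p = 0.00458). Both had PDBAG1 libraries below every vehicle library, and H3C3 missed the threshold with no filter (adjusted p = 0.0526). H1-4, a linker histone gene, stood at 4.76, 4.99 and 5.45 against 3.49, 3.85 and 4.52 TPM, also without overlap (-0.30, SE 0.102, adjusted p = 0.0344). Its call was the least stable, being lost with no filter (adjusted p = 0.0803) and without vehicle replicate 2 (adjusted p = 0.0720), vehicle replicate 3 (adjusted p = 0.137), PDBAG1 replicate 1 (adjusted p = 0.114) or PDBAG1 replicate 2 (adjusted p = 0.0972). The fold changes of these low genes are understated by the pseudocount of 1. Without PDBAG1 replicate 2, 3 replication-dependent genes were called in place of 7.

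By histone type, 4 of 9 tested H2B genes, 2 of 6 H3 genes and 1 of 2 linker H1 genes were called lower, beside 15.9% of all genes tested. In sets of this size, counts of 0 as below do not set a type apart from that share. Among 8 tested H2A genes 0 were called by limma, and 0 at an unadjusted p under 0.05, with a median estimate of -0.16. Among 6 tested H4 genes 0 were called, and 2 had an unadjusted p under 0.05. Those were H4C14 and H4C15, named after their values were seen, which carry the same value in every library (-0.44, adjusted p = 0.0650) and share all of their coding 50-base words, so they count as 1 measurement. Mean summed TPM changed by -23.1% for H3, -17.5% for H4, -14.8% for H2B, -11.7% for H2A and -11.5% for H1. The summed H3, H2B and H1 levels did not overlap between groups, while those of H4 and H2A did. Differences between types were not tested.

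By place, 34 replication-dependent genes lie on chromosome 6 and 11 on chromosome 1, with H2AC18 placed by its RefSeq promoter and the others by GENCODE 44. Calls fell on 7 of 23 tested genes of chromosome 6 and on 0 of 8 of chromosome 1, beside 15.9% of all genes tested. In so small a set, a count of 0 does not set chromosome 1 apart from that share. The 2 genes of chromosome 1 with an unadjusted p under 0.05 in limma were H4C14 and H4C15, which carry the same value in every library. The median estimates were -0.19 and -0.18. Of the genes with an annotated coding transcript running past 150 bases after the stop codon, 4 of 9 tested were called and the median vehicle level over all 10 was 3.45 TPM. Of those whose coding transcripts all end within 150 bases, 3 of 21 tested were called and the median level over all 34 was 1.40 TPM. These are 44.4% and 14.3% of the tested genes, beside 15.9% of all genes tested, and the difference was not tested. The 8 tested genes sharing at least 50% of their coding 50-base words had a median of -0.24, and the 9 tested genes sharing none had a median of -0.28. Exons of 12 of the 54 matched histone genes overlap another gene in GENCODE 44, among them the called genes H2AZ1, H3-3A, H3-3B and H2BC4, each with a gene on the opposite strand. The counting is not stated to use strand, so reads of such partners cannot be told apart.

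Genes that make, escort and place histones were read from the same fit, in lists compiled with earlier results of these data known. Of 29 genes for transcription and 3′ end processing of histone messages, 13 were lower and 3 higher, beside 15.9% and 21.7% of all genes tested, with a median of -0.15. These are 44.8% and 10.3% of the list. SLBP, which binds the stem-loops printed above, stood at 128.5, 129.7 and 127.6 TPM with vehicle and 95.5, 97.4 and 110.6 TPM with PDBAG1. The groups did not overlap (log2 fold change -0.35, SE 0.0534, adjusted p = 0.000214). LSM10, a subunit of the U7 particle that cuts histone messages, fell by 0.47 on the log2 scale (adjusted p = 1.18e-05), and ZNF473, which is tied to the same step, fell by 0.32 (adjusted p = 0.00313). The cyclin genes CCNE2 (-0.65, adjusted p = 6.30e-06) and CCNE1 (-0.30, adjusted p = 0.00436), which act with CDK2 on histone transcription, were lower. TUT7, a uridylating enzyme, rose by 0.36 (adjusted p = 0.00177), HINFP, a transcription factor of H4 genes, by 0.21 (adjusted p = 0.0144) and SYMPK, a scaffold of the cleavage complex, by 0.18 (adjusted p = 0.0107). HINFP was not called without vehicle replicate 2 (adjusted p = 0.0637) or PDBAG1 replicate 2 (adjusted p = 0.0759), nor SYMPK without PDBAG1 replicate 2 (adjusted p = 0.0629). NPAT, the activator of clustered histone genes, stood between 20.1 and 25.2 TPM with vehicle and between 19.99 and 22.9 TPM with PDBAG1, and was not called (-0.03).

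Histone chaperones were lower in 16 of 22 genes (72.7%, beside 15.9% of all genes tested) and higher in 1 (4.55%, beside 21.7%), with a median of -0.25. TONSL, a reader of newly made histones, was at -0.54 (adjusted p = 0.000161), CHAF1B, a subunit of the chromatin assembly factor CAF-1, at -0.47 (adjusted p = 4.50e-05), DNAJC9, an H3-H4 chaperone, at -0.40 (adjusted p = 1.28e-05), the importin gene IPO4 at -0.37 (adjusted p = 0.000220) and SUPT16H, a subunit of FACT, at -0.34 (adjusted p = 0.000182). SUPT6H rose by 0.15 (adjusted p = 0.0380), a call lost without vehicle replicate 2 (adjusted p = 0.156), vehicle replicate 3 (adjusted p = 0.0996), PDBAG1 replicate 2 (adjusted p = 0.0737) or PDBAG1 replicate 3 (adjusted p = 0.130). With no filter on low values, 0 chaperone genes were called higher. A list of 22 genes tied to the deposition of variants also held CENPA, itself a variant, and ANP32E, a chaperone that removes H2A.Z. Of the 22, 8 were lower (36.4%), CENPA and ANP32E among them, and 2 higher (9.09%). These are read against the same shares of all genes, and the median was -0.05. Those lower included OIP5 (-0.32, adjusted p = 0.000937) and MIS18A (-0.32, adjusted p = 0.000737), which serve the centromere, RUVBL1 (-0.29, adjusted p = 0.000464) and YEATS4 (-0.26, adjusted p = 0.000880), which belong to complexes that place H2A.Z, and CENPA, the centromeric H3 (-0.25, adjusted p = 0.00774). CABIN1, of the HIRA complex that places H3.3, rose by 0.30 (adjusted p = 0.00555), and EP400, the motor of an H2A.Z complex, by 0.19 (adjusted p = 0.0380). The EP400 call was lost without vehicle replicate 2 (adjusted p = 0.121), vehicle replicate 3 (adjusted p = 0.139), PDBAG1 replicate 2 (adjusted p = 0.0841) or PDBAG1 replicate 3 (adjusted p = 0.110), and with quantile normalisation (adjusted p = 0.0620). With no filter on low values, 1 gene of the deposition list was called higher in place of 2.

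Genes of S phase and DNA replication were lower in the same libraries. Of 40 such genes, 39 (97.5%) were lower and 0 higher in limma, beside 15.9% and 21.7% of all genes tested. At an unadjusted p under 0.05 in limma 40 were lower, and the median was -0.41. Their summed level was 3389 to 3530 TPM with vehicle and 2523 to 2741 TPM with PDBAG1. UNG, which removes uracil from DNA, was at -0.83 (adjusted p = 3.07e-07), GINS2, of the replicative helicase, at -0.77 (adjusted p = 3.24e-06), CDCA7 at -0.76 (adjusted p = 4.92e-07), DSCC1, of a clamp loader, at -0.66 (adjusted p = 1.40e-05) and TIPIN, of the fork protection complex, at -0.62 (adjusted p = 1.99e-06). The part of these genes, and of the share of cells in S phase, in the histone result was not tested.

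**Figure D5:**
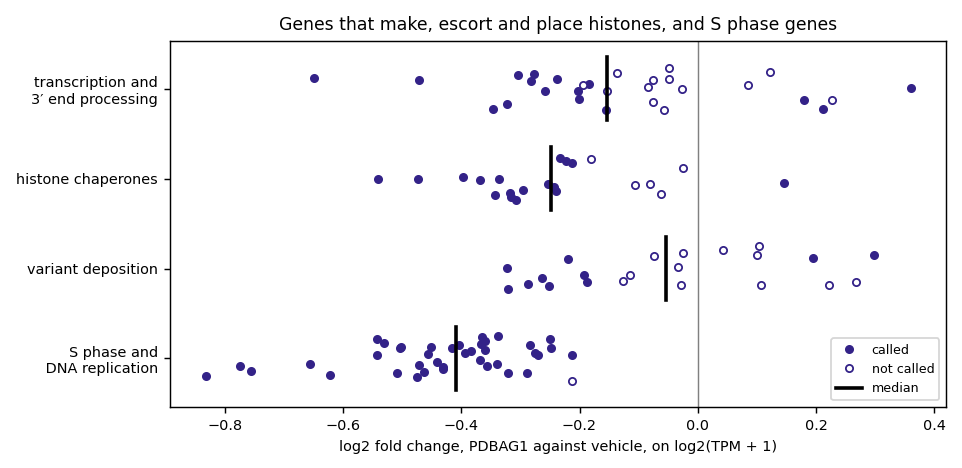
Log2 fold change, PDBAG1 against vehicle on the log2(TPM + 1) scale, of each gene in the lists for histone message production (29 genes), chaperones (22), variant deposition (22) and S phase (40), with the list median as a bar and called genes filled. The medians are -0.15, -0.25, -0.05 and -0.41.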

How the data were processed

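Samples were grouped by their labels. Per the methods, mRNA libraries were sequenced on the BGISEQ-500 platform, and reads were mapped with HISAT2 to a GRCh38 build and counted per gene. The submitters' processing notes name HISAT2 2.0.4, Bowtie2 2.2.5, RSEM 1.2.12 and GRCh38.p12, while the methods name a later GRCh38 patch and FPKM. The labels mention Illumina protocols for the libraries. The values the authors deposited are TPM with 2 decimals for 17631 genes, and the annotation and the step from counts to TPM are not given in the sources used here. TPM keeps no depth, and the precision is set by the 3 libraries of each group.

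Genes with at least 1 TPM in 3 or more libraries were tested as log2(TPM + 1) with limma 3.58.1 (lmFit and eBayes with trend, R 4.3.3), after the code was tested on simulated data. Calls were made at a Benjamini-Hochberg adjusted p under 0.05 over all genes tested. No sample was left out or duplicated. Histone genes with a mean of at least 10 TPM in either group, other histone genes that were called, and up to 5 called genes in each direction of each supply list were named, except 1 variant gene that enters the counts and sums and is not reported here. The members and lists were chosen with earlier results of these data known. Older symbols came from RefSeq by gene ID, and 3′ ends from GENCODE 44. Alternatives were other filters, a pseudocount of 0.1, other scalings, a fold limit of 1.5, a replicate block and leaving out each library. Shares within paralogue pairs were compared by exact permutation tests.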

Additional observations from a re-analysis of the deposited data

How the results depend on the processing

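Of the named genes' values under the alternatives, 495 kept their direction and side of the threshold, 33 lost a call, 6 gained one and 4 changed sign, all 4 of them H1-10 (-0.036 with median-of-ratios scaling, and -0.037 to 0.050 when 1 library was left out). With a fold limit of 1.5, calls over all genes went from 4736 to 420, replication-dependent genes from 7 to 3, variant genes from 5 to 0, message production from 13 to 1, chaperones from 16 to 0, variant deposition from 8 to 0 and S phase from 39 to 5. With no filter on low values, 4 replication-dependent genes were called. Leaving out 1 library gave 3 to 10 replication-dependent and 4 to 6 variant genes, the 3 coming without PDBAG1 replicate 2. The log2 ratio of the replication-dependent sum was -0.23 and became -0.27 with median-of-ratios and -0.29 with quantile scaling, and that of the variant sum was -0.21 and became -0.25 and -0.18. The cause of these shifts was not tested.

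Replicate numbers gave no sign of pairing, as deviations of same-numbered libraries correlated at -0.21, 0.01 and -0.08. With 3 libraries a group, these values cannot exclude pairing. With the replicate block, 3951 genes, 8 replication-dependent and 5 variant genes were called. H1-4 (adjusted p = 0.0505), HINFP (adjusted p = 0.0529), SUPT6H (adjusted p = 0.0821) and EP400 (adjusted p = 0.102) were then not called. Depth is unknown, and the median replication-dependent gene stood at only 2.30 TPM with vehicle.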

Other observations

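Some histone genes have names outside the symbols used for the set. MACROH2A1, a large H2A variant, stood at 319.2, 324.1 and 319.9 TPM with vehicle and at 304.6, 305.4 and 305.6 TPM with PDBAG1. Its groups did not overlap, but the estimate of -0.07 missed the threshold (limma, adjusted p = 0.111). MACROH2A2, its paralogue, was at most 0.55 TPM. The others present in the table, H2AW, H4-16, H2BE1, H2BS1, H2AB1, H2BW1, H2BW2 and H3Y1, were all below 1 TPM in every library and were not tested.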
